A study of Homo sapiens with 32 samples.

Results

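The NR4A genes encode the NR4A family of orphan nuclear receptors, and all 3 of its members were measured in HGrC1 cells, an established non-luteinized human granulosa cell line. The members were taken by their gene symbols, NR4A1, NR4A2 and NR4A3, and are 3 of the 18583 gene entries that held values (47137 entries in all). The study asked how prolonged low-level exposure to perfluorooctane sulfonate (PFOS), a persistent surfactant, affects such cells. Cells from 4 independently thawed vials were each split between a vehicle group (0.05% DMSO, Control) and groups given PFOS at 0.01 µM, at 0.1 µM and at 1 µM. PFOS was added again at each passage, and RNA was taken after 6 and 12 weeks. This gave 8 groups of n = 4, or 32 libraries. Every group, Control included, was kept in medium with 10% FBS, and with 100 nM of a hormone that the sample labels give as estradiol and the study's methods as testosterone. All vials hold the same line, so the spread between vials is that between cultures of 1 line and not between donors.

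NR4A receptors carry no known physiological ligand, and their activity follows from how much of the protein is made. Their genes are immediate early genes, switched on within hours by hormones that raise cAMP, by growth factors and by stress. The proteins bind DNA as monomers at the NBRE motif, or as dimers, and NR4A1 and NR4A2 can also pair with the retinoid X receptors. NR4A1 (also called NUR77) is known for driving steroidogenic genes in gonadal and adrenal cells, NR4A2 (NURR1) for its need in dopamine neurons, and NR4A3 (NOR-1) as a receptor of vascular, muscle and blood cells. In the ovary, the surge of luteinizing hormone raises these genes in follicle cells.

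On GRCh38.p14, NR4A1 (gene ID 3164) lies on the plus strand of chromosome 12 from 52022832 to 52059503, NR4A2 (gene ID 4929) on the minus strand of chromosome 2 from 156324437 to 156332721, and NR4A3 (gene ID 8013) on the plus strand of chromosome 9 from 99821885 to 99866891. RefSeq promoter windows, from 250 bases before to 50 bases after a start site, were at hand for 2 of the 3 members (3 windows). They were searched on both strands for TGACG, the core of the cAMP response element (CRE) that CREB binds, for its full palindrome TGACGTCA and for the NBRE, AAAGGTCA. The palindrome contains the core on each strand. The window of NR4A3 (chr9:99821635-99821934, plus strand) is shown because it is that of the member with the largest changes and holds 4 copies of the core, in capitals, which read CGTCA where the copy is on the minus strand.
NR4A3: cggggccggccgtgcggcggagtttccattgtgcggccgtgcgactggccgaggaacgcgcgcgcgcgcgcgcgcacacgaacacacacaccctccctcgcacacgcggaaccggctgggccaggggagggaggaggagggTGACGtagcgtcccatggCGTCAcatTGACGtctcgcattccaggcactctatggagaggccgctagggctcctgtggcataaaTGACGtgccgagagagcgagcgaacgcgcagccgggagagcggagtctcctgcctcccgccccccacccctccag
Counted from the start site, these copies begin at bases -109, -91, -83 and -25, and the copy at -91 is the one on the minus strand. Of 35116 promoter windows of the same length, 24.6% held the core and 0.313% (110 windows) held 4 or more copies. Neither window of NR4A1 (starting at 52022582 and 52037465 on chromosome 12) held the core. The gene runs on to 52059503, and any start site outside these windows was not searched. Their lack of the core therefore does not show that the NR4A1 promoter lacks it. The palindrome, found in 1.85% of all windows, and the NBRE, found in 1.22%, were in none of the 3 windows. These matches describe letters only.

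Total counts were 17907056 to 18553348 per library, so depth was nearly even. Of 18 granulosa cell markers, 10 had a median of at least 1 TPM (the level of a transcript scaled for its length and for the library total), among them GATA4 (74.1 TPM) and WT1 (37.3 TPM), and 6 were below it, among them FOXL2 (0.635 TPM) and NR5A1 (0.06 TPM). FSHR and LHCGR, the gonadotropin receptors, had no values, and CYP19A1 was at 0 in 31 of the 32 libraries. Summed counts of the granulosa list were 6815 to 7845 per library. Markers of theca cells summed to 0 to 5 counts, of endothelium to 5 to 32 and of epithelium to 33 to 80. BMP15 of the oocyte list was at 0 in all 32 libraries and PTPRC of the leukocyte list had at most 8 counts, whereas ZP3 (321 to 527 counts) and CD68 (243 to 497) held most of the counts of their lists. At 6 weeks the groups differed in a list of 6 liver transcripts, all of which had values. This list summed to 0 to 1 counts in Control and at 0.01 µM, with AFP, AHSG and APOB at 0 in all Control libraries, whereas the sums were 89 to 141 with 0.1 µM PFOS and 88 to 115 with 1 µM PFOS. At 12 weeks it summed to 72 to 174 in all libraries but replicate 3 of Control, which had 919. In bulk RNA, fewer cells with a transcript and less transcript per cell cannot be told apart.

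All 3 receptors were detected in every library, with 2598 to 5940 counts for NR4A1, 1231 to 2791 for NR4A2 and 247 to 1546 for NR4A3. Per transcript length, NR4A1 was the most abundant and NR4A3 the least in each of the 8 groups. In 6-week Control cells, NR4A1 was at 120 ± 20.05 TPM, NR4A2 at 52.4 ± 7.30 TPM and NR4A3 at 12.2 ± 2.27 TPM (SD, n = 4). Ranked by mean TPM over the 32 libraries among all entries with values, NR4A1 was number 1005, NR4A2 number 2795 and NR4A3 number 7440. NR4A3 made up 6.58 ± 0.339% of the summed TPM of the family in 6-week Control (SD, n = 4), 4.99 ± 0.629% at 0.01 µM, 2.80 ± 0.475% at 0.1 µM and 5.34 ± 0.709% at 1 µM. At 12 weeks its share was 7.64 ± 0.463% in Control, 7.09 ± 0.367% at 0.01 µM, 5.40 ± 1.00% at 0.1 µM and 4.25 ± 0.650% at 1 µM. The NR4A3 share was therefore lowest at 0.1 µM after 6 weeks and at 1 µM after 12 weeks. The share of NR4A2 was 27.1 to 29.2% in the 6-week groups and 20.4 to 23.5% in the 12-week groups, by group mean. The shares are given without a test.

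NR4A3 was lower after 6 weeks at 0.1 µM PFOS than in Control, and by edgeR this was the only call among the 3 receptors in the 6 comparisons of a PFOS group with the Control of its time. In CPM (counts scaled to the library total), the 4 Control libraries of 6 weeks were at 51.3, 43.1, 41.7 and 31.5 (replicates 1 to 4). Those at 0.01 µM were at 33.4, 32.5, 27.4 and 25.8, those at 0.1 µM at 13.7, 14.9, 16.03 and 22.7, and those at 1 µM at 38.4, 37.4, 35.7 and 29.8. The libraries at 0.1 µM all lay below those of the other 3 groups, while the ranges at 0.01 and 1 µM overlapped with that of Control. The fitted log2 change at 0.1 µM was -1.32 (SE 0.177, adjusted p = 0.00385, edgeR), NR4A3 was lower in 4 of 4 vials, and the change passed the 2-fold threshold for a differentially expressed gene (DEG). In the exact two-sided permutation test p was 0.0286, the smallest that 4 against 4 allows. A share of 4.24% of all genes tested was called in that comparison (544 of 12836). With the vial of replicate 3 left out of every group the call was lost (log2 change -1.29, adjusted p = 0.0994), and 22 genes in all were then called. The adjusted p ranged from 9.36e-10 to 0.0994 in the alternative fits. The liver transcripts also differed from Control at 0.1 µM (and at 1 µM, where NR4A3 was not called), and their part in the result was not tested.

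The other 2 concentrations gave smaller differences at 6 weeks. At 0.01 µM the log2 change of NR4A3 was -0.50 (SE 0.163, adjusted p = 0.453) and at 1 µM it was -0.24 (SE 0.160, adjusted p = 0.551), with 4 of 4 vials lower than Control each time. Both ranges overlapped with Control (exact permutation p = 0.0857 and 0.257), so these counts of vials rest on the replicate numbers. By edgeR, 0% of genes were called at 0.01 µM (0 genes, with 1232 at an unadjusted p under 0.05, and 0 by DESeq2), and 0.28% at 1 µM (36 genes). NR4A3 thus had no steady trend with concentration at this time. From 0.01 to 0.1 µM its log2 change was -0.82 (SE 0.185, adjusted p = 0.125), and from 0.1 to 1 µM it was 1.08 (SE 0.181, adjusted p = 0.0509). The ranges did not overlap in either step (exact permutation p = 0.0286 each). The share of genes called was 0.273% in the first step and 0.0857% in the second. The 1 µM step passed the threshold by DESeq2 (adjusted p = 8.82e-06), and its adjusted p ranged from 2.68e-07 (without replicate 4) to 0.992 in the alternative fits. Without replicate 4, the differences of 0.01 µM from Control (adjusted p = 0.0256, range 0.0256 to 0.997) and from 0.1 µM (adjusted p = 6.78e-06, range 6.78e-06 to 0.524) passed as well. All comparisons within a time share libraries, so they are not independent.

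After 12 weeks NR4A3 had lower means than Control at each PFOS concentration, although no comparison was called. The Control libraries were at 84.9, 64.1, 77.0 and 68.3 CPM, those at 0.01 µM at 69.4, 45.5, 53.0 and 38.3 CPM, those at 0.1 µM at 67.9, 33.3, 28.0 and 25.96 CPM, and those at 1 µM at 30.4, 33.7, 29.5 and 20.5 CPM. All libraries at 1 µM lay below all of Control, whereas at 0.01 and 0.1 µM replicate 1 stood above the other 3 and reached into the Control range. Against Control the log2 change was -0.51 (SE 0.278, adjusted p = 0.640) at 0.01 µM, -0.94 (SE 0.284, adjusted p = 0.153) at 0.1 µM and -1.39 (SE 0.291, adjusted p = 0.105) at 1 µM. NR4A3 was lower in 4 of 4 vials at each concentration. The exact permutation p was 0.0857, 0.0571 and 0.0286 in that order.

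The calls for NR4A3 at 12 weeks depended on the fit. With the vial as replicate block, the change passed at 0.1 µM (log2 change -1.005, adjusted p = 0.0427) and at 1 µM (-1.40, adjusted p = 0.0224). Same-numbered libraries of Control and 1 µM at 12 weeks did not deviate together (mean r = -0.163 across genes), so the pairing behind the value at 1 µM is in doubt. For Control and 0.1 µM the mean r was 0.0532, so the pairing behind that value is only weakly borne out. The count of 4 of 4 lower vials at 1 µM holds for any numbering because the ranges do not overlap. At 0.01 and 0.1 µM the ranges overlap with Control, so the count there rests on the numbering. At 1 µM the change of NR4A3 also passed by DESeq2 (adjusted p = 0.00105), in a fit of the 8 libraries of the 2 groups (adjusted p = 0.00623) and in a fit of all 32 libraries (adjusted p = 0.00277), with a range of 2.72e-24 to 0.618 in the alternative fits. Without replicate 1 the adjusted p was 0.00650 at 0.1 µM (range 0.00650 to 0.746) and 0.0119 at 1 µM. Without replicate 3 of Control, the library rich in liver transcripts, the log2 change was -0.91 (adjusted p = 0.418) at 0.1 µM and -1.36 (adjusted p = 0.332) at 1 µM. The share of genes called was 1.07% at 0.1 µM (136 of 12742) and 0.22% at 1 µM (28 genes), while 0% were called at 0.01 µM (0 by edgeR, 1080 at an unadjusted p under 0.05, 4 by DESeq2). Between neighbouring concentrations NR4A3 did not pass (-0.42, SE 0.288, adjusted p = 0.519, and -0.45, SE 0.300, adjusted p = 0.743). From 0.1 to 1 µM it was higher in 2 vials and lower in 2 (exact permutation p = 0.486), and without replicate 1 the log2 change of that step was -0.06 (adjusted p = 0.992, range 0.499 to 1 in the alternative fits). In both steps 0% of genes were called by edgeR, with 1891 and 984 at an unadjusted p under 0.05 and 148 and 0 called by DESeq2.

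NR4A1, the most abundant member, was not called against Control at any concentration by edgeR. At 6 weeks its libraries were at 216, 172, 170 and 143 CPM in Control, 158, 182, 173 and 151 CPM at 0.01 µM, 159, 171, 194 and 188 CPM at 0.1 µM and 213, 159, 207 and 178 CPM at 1 µM. These ranges all overlapped, and the log2 changes against Control were -0.08 (SE 0.126), 0.02 (SE 0.125) and 0.11 (SE 0.125), with adjusted p of 0.887, 0.959 and 0.740. At 12 weeks the libraries were at 326, 274, 297 and 223 CPM in Control, 304, 182, 247 and 161 CPM at 0.01 µM, 312, 187, 198 and 170 CPM at 0.1 µM and 206, 219, 209 and 207 CPM at 1 µM. Replicate 1 was the highest of its group in Control and at 0.01 and 0.1 µM, and the 1 µM libraries lay close together, just below the lowest of Control. The log2 changes were -0.33 (SE 0.214, adjusted p = 0.690), -0.39 (SE 0.214, adjusted p = 0.409) and -0.43 (SE 0.214, adjusted p = 0.598), with 4 of 4 vials lower each time. The exact permutation p was 0.229, 0.143 and 0.0286 in that order. At 0.01 and 0.1 µM the ranges overlapped with Control, so the counts of vials there rest on the replicate numbers. At 1 µM, DESeq2 on the 8 libraries of the 2 groups passed the threshold (adjusted p = 0.000722), 1 of 13 alternatives to do so (range 0.000722 to 0.794). Between neighbouring concentrations the log2 changes were -0.06 to 0.10 at either time, and none passed. The antisense gene NR4A1AS, which overlaps the end of NR4A1 on the other strand, had values in 0 libraries, and the libraries kept strand.

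NR4A2 had almost the same level in all 6-week groups and lower values with PFOS at 12 weeks that did not pass the test. The 6-week libraries were at 130, 106, 108 and 89.3 CPM in Control, 99.3, 116, 105 and 103 CPM at 0.01 µM, 93.1, 103, 102 and 114 CPM at 0.1 µM and 111, 107, 112 and 107 CPM at 1 µM. Control had the widest range, within which all PFOS libraries fell, and the log2 changes were -0.04 (SE 0.0920), -0.08 (SE 0.0922) and 0.02 (SE 0.0919), with adjusted p of 0.942, 0.690 and 0.955. The 12-week libraries were at 139, 103, 150 and 132 CPM in Control, 109, 74.3, 91.1 and 67.1 CPM at 0.01 µM, 115, 74.2, 74.0 and 69.1 CPM at 0.1 µM and 96.5, 102, 78.5 and 68.0 CPM at 1 µM. The 3 PFOS groups were alike, each with means of 83.2 to 86.2 CPM against 131 CPM in Control, and at 1 µM no library reached the Control range. The log2 changes were -0.62 (SE 0.200, adjusted p = 0.565), -0.67 (SE 0.200, adjusted p = 0.147) and -0.63 (SE 0.200, adjusted p = 0.354), lower in 4 of 4 vials each time. The exact permutation p was 0.0571, 0.0571 and 0.0286 in that order. At 0.01 and 0.1 µM the ranges overlapped with Control, so the counts of vials there rest on the replicate numbers. At 0.1 µM the change passed in the fit of all 32 libraries (adjusted p = 0.0164) and without replicate 1 (adjusted p = 0.0451), over a range of 0.0164 to 0.750, and at 1 µM it passed by DESeq2 on the 8 libraries (adjusted p = 0.0251, range 0.0251 to 0.731). Steps between neighbouring concentrations were -0.05 to 0.10 and none passed.

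**Figure D1:**
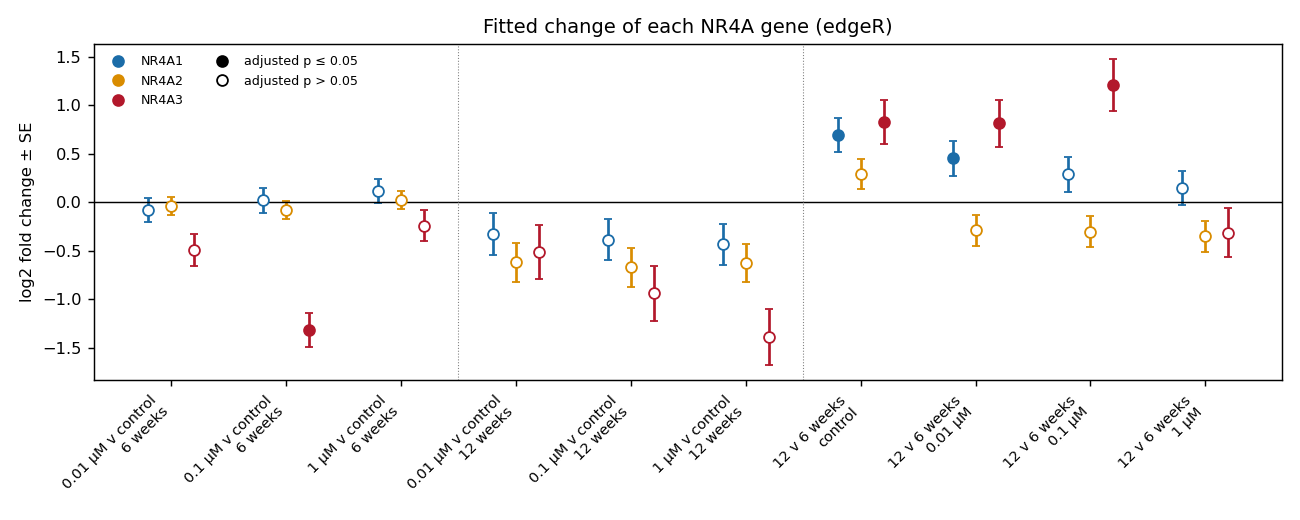
Fitted log2 fold change ± SE of NR4A1, NR4A2 and NR4A3 for each PFOS group against Control at 6 and 12 weeks, and for 12 against 6 weeks within each concentration (filled: adjusted p at or under 0.05, edgeR). The filled PFOS point is NR4A3 at 0.1 µM and 6 weeks (-1.32), and at 12 weeks all 9 PFOS points lie below 0.

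When the groups were put in order of mean CPM, 12-week Control was highest for each gene, at 280 ± 43.5 CPM for NR4A1, 131 ± 20.5 CPM for NR4A2 and 73.6 ± 9.26 CPM for NR4A3 (SD, n = 4). The lowest group was 0.01 µM at 6 weeks for NR4A1 (166 ± 14.1 CPM), 0.1 µM at 12 weeks for NR4A2 (83.2 ± 21.6 CPM) and 0.1 µM at 6 weeks for NR4A3 (16.8 ± 4.05 CPM). Neighbours in these orders overlapped in range in every case.

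Between 6 and 12 weeks, NR4A1 and NR4A3 rose in Control cells, and the rise was seen for NR4A3 also at 0.01 and 0.1 µM but not at 1 µM. The log2 change of NR4A3 from 6 to 12 weeks was 0.83 (SE 0.228, adjusted p = 0.00620) in Control, 0.81 (SE 0.241, adjusted p = 0.00839) at 0.01 µM, 1.21 (SE 0.264, adjusted p = 0.000740) at 0.1 µM and -0.31 (SE 0.249, adjusted p = 0.366) at 1 µM. In the first 3 of these groups NR4A3 was higher at 12 weeks in 4 of 4 vials with no overlap (exact permutation p = 0.0286), and at 1 µM it was lower in 4 of 4. At 1 µM the ranges overlapped (exact permutation p = 0.0857), so that count rests on the replicate numbers. Whether these numbers match between the times was not checked. NR4A1 rose in Control (0.69, SE 0.179, adjusted p = 0.00377) and at 0.01 µM (0.45, SE 0.179, adjusted p = 0.0449), and had log2 changes of 0.29 (SE 0.179, adjusted p = 0.210) at 0.1 µM and 0.15 (SE 0.179, adjusted p = 0.580) at 1 µM. The exact permutation p of NR4A1 was 0.0286, 0.114, 0.286 and 0.257 in that order, and its ranges overlapped in all groups but Control. NR4A2 was not called, with log2 changes of 0.29 in Control and -0.29, -0.30 and -0.35 at rising concentrations (adjusted p of 0.152, 0.150, 0.136 and 0.0994). Its exact permutation p was 0.171, 0.114, 0.143 and 0.0286 in the same order. Only at 1 µM did the ranges of NR4A2 not overlap, with 4 of 4 vials lower at 12 weeks. These comparisons called a large part of all 12988 genes tested, namely 36.6% in Control, 42.7% at 0.01 µM, 40.3% at 0.1 µM and 30.1% at 1 µM. Without replicate 3 the rises in Control were no longer called (adjusted p = 0.0520 for NR4A1 and 0.0573 for NR4A3), nor were those at 0.01 µM (0.194 and 0.0779), and that of NR4A1 at 0.01 µM was also lost without replicate 1 (0.166) or replicate 2 (0.0588). Without replicate 1, NR4A2 passed at 0.01 µM (adjusted p = 0.0201), at 0.1 µM (0.00703) and at 1 µM (0.0471), lower at 12 weeks each time. The liver transcripts rose in the same comparisons in Control (4 of 4 tested, median log2 change 8.56) and at 0.01 µM (4 of 4, median 7.49), the groups in which NR4A1 was called, and 0 of 4 were called at 0.1 µM (median -0.0834) or 1 µM (median 0.348). Their part in the rises was not tested. Weeks of exposure, passages and the time of harvest differ together and cannot be told apart.

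Whether the PFOS effect itself differed between the times was tested as an interaction, and 0 of the 9 tests passed by edgeR, with 5 at an unadjusted p under 0.05. DESeq2 called 0 of the 8 for which it gave an adjusted p, all but that of NR4A3 at 1 µM. The largest difference, that of NR4A3 at 1 µM, was -1.14 (SE 0.338, adjusted p = 0.183, range over alternatives 0.0780 to 0.646). For NR4A3 at 0.1 µM the difference was 0.38 (SE 0.350, adjusted p = 0.658), and for NR4A2 it was -0.58, -0.59 and -0.64 at rising concentrations (adjusted p of 0.621, 0.213 and 0.255). The share of all genes called was 0% at 0.01 µM (0 by edgeR, 972 at an unadjusted p under 0.05, 1 by DESeq2), 0.208% at 0.1 µM and 0.123% at 1 µM. The call of NR4A3 at 6 weeks and the lack of a call at 12 weeks at 0.1 µM are therefore not shown to differ.

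Libraries that were high for their group in one receptor tended to be high in the others. After the group mean of log2(CPM + 1) was removed, deviations of NR4A2 and NR4A3 correlated over the 32 libraries with r = 0.876 and rho = 0.838 (permutation p = 1e-05 each, the smallest that 100000 permutations within groups can give, adjusted p = 3e-05 each). NR4A1 and NR4A3 had r = 0.792 (permutation p = 2e-05, adjusted 3e-05) and rho = 0.722 (permutation p = 0.00013, adjusted 0.000195). NR4A1 and NR4A2 had r = 0.783 (permutation p = 0.0002, adjusted 0.0002) and rho = 0.731 (permutation p = 0.00024, adjusted 0.00024). These were 3 pairs, adjusted together. The permutations, here and within each time, took no account of vials, although each vial gave a library to every group. Their p-values therefore treat related cultures as independent. Replicate 1 at 0.1 µM and replicate 1 at 0.01 µM after 12 weeks deviated most for each receptor, and without the 2 libraries farthest from the median r was 0.814, 0.670 and 0.662 in the same order.

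At each time r was above 0 for all pairs and passed the test. At 6 weeks (16 libraries) r was 0.777 for NR4A2 and NR4A3, 0.633 for NR4A1 and NR4A3 and 0.814 for NR4A1 and NR4A2, with adjusted permutation p of 0.0124, 0.0219 and 0.00288. Without the 2 farthest libraries these were 0.643, 0.409 and 0.626, so that of NR4A1 and NR4A3 rested in part on those libraries. At 12 weeks (16 libraries) r was 0.910, 0.848 and 0.779, with adjusted permutation p of 0.00012, 0.00069 and 0.00616, and 0.854, 0.674 and 0.571 without the 2 farthest. Over all 32 libraries, with the vial mean of each time removed as well, which takes out the pairing by vial, r was 0.794, 0.642 and 0.616. Values of 1 library share its culture, harvest and depth.

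The genes most like each receptor were sought among 12614 genes with a mean of at least 10 counts, as a description without a test. With group means removed, the gene closest to NR4A3 was NR4A2 (r = 0.876), followed by the zinc finger gene ZNF331 (0.872), NR4A1 (0.792), RASD1 (0.791), a Ras-like protein induced by glucocorticoid, and SNAI1 (0.776), a repressor of epithelial genes. For NR4A2 the order was ZNF331 (r = 0.904), NR4A3 (0.876), the AP-1 subunit JUNB (0.852), C11orf96 (0.851) and CSRNP1 (0.835). For NR4A1 it was KLF10 (r = 0.922), LOC102724428 (0.905), BHLHE40 (0.896), JUNB (0.875) and IER2 (0.865), of which KLF10 and BHLHE40 are transcriptional repressors. NR4A3 and NR4A2 came at ranks 14 and 17 for NR4A1, and NR4A1 at rank 16 for NR4A2. For NR4A1 and NR4A2 the likeness was therefore not particular to the family, as genes outside it ranked highest. For NR4A3 the closest gene was in the family (NR4A2, r = 0.876), with ZNF331 close behind (0.872). LOC102724428 is a near-identical copy of the kinase gene SIK1, itself a CREB target, and had a mean of 3563 counts while SIK1 had at most 13, so reads of the 2 copies cannot be told apart.

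Without removal of the group means, r also carries the differences between groups. NR4A3 was then closest to ZNF331 (r = 0.913), AVPI1 (0.878), UPP1 (0.870), ARID5B (0.866) and TIPARP (0.861), and NR4A1 and NR4A2 came at ranks 25 and 458. NR4A1 was closest to IER2 (0.809), RHOB (0.799), FOSB (0.799), ZNF331 (0.788) and EGR1 (0.785). NR4A2 was closest to JUNB (0.891), CHMP1B (0.864), TOB1 (0.847), VPS18 (0.831) and NFIL3 (0.826). The pairs with NR4A2 were thus looser across groups (r of 0.432 with NR4A1 and 0.454 with NR4A3) than within them.

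Genes around the receptors were counted from 4 lists. Of 27 genes of the cAMP, PKA and CREB pathway, which carries the signal to NR4A promoters, 21 were tested, and 0 were called in each of the 6 comparisons with Control by edgeR, with 0 to 3 at an unadjusted p under 0.05. In rising order of concentration, the share of all genes called was 0%, 4.24% and 0.28% at 6 weeks. At 12 weeks it was 0%, 1.07% and 0.22%. At such shares, 0 calls among 21 genes does not set the list apart from all genes. DESeq2 called 0 of the 6 to 21 to which it gave an adjusted p. Median log2 changes of this list were -0.0257 to 0.0379, beside -0.00474 to 0.00233 over all genes. CREB1 (16.5 to 19.3 TPM by group mean), the catalytic subunit PRKACA (55.0 to 60.7 TPM) and the coactivator CRTC2 (31.8 to 34.6 TPM) had nearly level means across the groups. From 6 to 12 weeks, 2 rose and 3 fell in Control, 4 and 3 at 0.01 µM, 6 and 4 at 0.1 µM, and 4 and 2 at 1 µM, with 1 to 6 risen and 1 to 4 fallen in the alternative fits. Of all genes, 36.6%, 42.7%, 40.3% and 30.1% were called in these comparisons. SIK1 is in this list, whereas its near-identical copy LOC102724428, to which most reads of the pair went, is not. All of these are transcript levels, and the activity of the pathway was not measured.

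Among 7 partner or competitor receptors, 4 were tested and 0 were called against Control by edgeR, with 0 to 1 at an unadjusted p under 0.05. Of all genes, 0 to 4.24% were called in these comparisons, so 0 of 4 does not set the list apart. DESeq2 called 0 of the 0 to 4 with an adjusted p, and had none at 0.01 µM and 12 weeks. RXRB (37.1 to 41.6 TPM) and RXRA (11.3 to 13.3 TPM), the heterodimer partners, were expressed in all groups, and RXRG was at 0 counts. NR5A1 and NR5A2, which share binding sequences with the NR4A receptors, were at most at 0.215 and 0.378 TPM by group mean. NR0B1, a repressor of both families, was at 2.31 to 3.91 TPM.

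Immediate early genes, which answer the same stimuli, included 18 genes, of which 17 were tested at 6 weeks and 18 at 12 weeks. After 12 weeks 17 of the 18 had a negative log2 change at each concentration, in comparisons that share the Control libraries, with medians of -0.26, -0.456 and -0.299 beside 0.00233, -0.00474 and -0.0041 over all genes. At 0.1 µM 7 of them fell and 0 rose, where 1.07% of all genes were called (69 lower and 67 higher). The 4 that fell most were KLF4 (log2 change -0.97, SE 0.187, adjusted p = 0.0245), FOSB (-0.91, SE 0.184, adjusted p = 0.0383), IER3 (-0.81, SE 0.163, adjusted p = 0.0357) and ATF3 (-0.80, SE 0.0949, adjusted p = 0.000778), of which KLF4, FOSB and ATF3 encode transcription factors and IER3 a stress-response protein. ATF3 went from 326 to 407 CPM in Control to 194 to 256 CPM, without overlap. At 1 µM only ATF3 fell (-0.50, SE 0.0943, adjusted p = 0.0308), where 0.22% of all genes were called. At 0.01 µM 0 were called by edgeR, with 8 at an unadjusted p under 0.05, and 0 of the 14 with an adjusted p by DESeq2. The count at 0.1 µM was 1 without replicate 3, 2 without replicate 4, 4 without replicate 2, 4 in the fit of the 8 libraries, 3 without replicate 3 of Control alone, and 11 in the fit of all 32 libraries. The count at 1 µM was 0 without replicate 2, 3 or 4, 0 without replicate 3 of Control alone and 0 with no filter on low counts, with 6 to 10 at an unadjusted p under 0.05 in those fits, and up to 6 with DESeq2.

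At 6 weeks 3 of the 17 tested genes of this list were called at 0.1 µM and 1 at 1 µM, and the calls went both ways. At 0.1 µM EGR1 rose (log2 change 0.68, SE 0.167, adjusted p = 0.0432), the phosphatase gene DUSP1 rose (0.26, SE 0.0639, adjusted p = 0.0336) and KLF4 fell (-0.39, SE 0.0982, adjusted p = 0.0371), and the list median was 0.0472. At 1 µM KLF6 rose (0.20, SE 0.0345, adjusted p = 0.00370), and at 0.01 µM 0 of 17 were called by edgeR, with 1 at an unadjusted p under 0.05, and 0 of 16 by DESeq2. Of all genes, 4.24% were called at 0.1 µM and 0.28% at 1 µM. No immediate early gene tested at 6 weeks and 0.1 µM had a log2 change as low as that of NR4A3. The 3 calls at 0.1 µM became 0 without replicate 3, in the fit of all 32 libraries or with no filter on low counts (with 5 to 6 at an unadjusted p under 0.05), 1 without any other single replicate and 5 by DESeq2. That at 1 µM was lost without replicate 3 or 4 and in the fit of all 32 libraries. From 6 to 12 weeks, 9 of 18 rose and 0 fell in Control, 7 rose and 2 fell at 0.01 µM, 1 rose and 3 fell at 0.1 µM, and 5 rose and 2 fell at 1 µM, beside 36.6%, 42.7%, 40.3% and 30.1% of all genes called in either direction. In the alternative fits 7 to 11 rose and 0 to 1 fell in Control, and the numbers risen were 4 to 8, 1 and 4 to 6 with PFOS, in rising order of concentration.

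**Figure D2:**
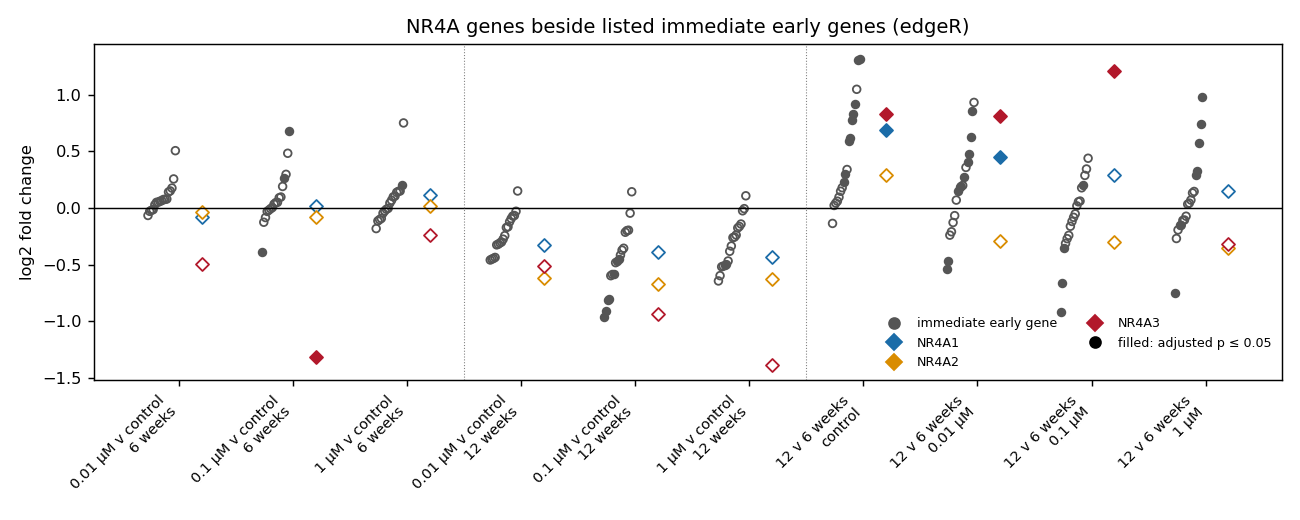
Fitted log2 fold change of each listed immediate early gene (circles) and of NR4A1, NR4A2 and NR4A3 (diamonds) for each PFOS group against Control and for 12 against 6 weeks (filled: adjusted p at or under 0.05, edgeR). NR4A3 at 0.1 µM and 6 weeks (-1.32) lies below all circles of that comparison, and at 12 weeks 17 of the 18 circles lie below 0 at each concentration.

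Of 16 genes described elsewhere as NR4A targets, 5 were tested, and 0 were called against Control at any concentration by edgeR, with 0 to 2 at an unadjusted p under 0.05. Of all genes, 0 to 4.24% were called in these comparisons, so 0 of 5 does not set the list apart. DESeq2 called 0 of the 0 to 5 with an adjusted p, and had none at 0.01 µM and 12 weeks. Those tested were STAR, which carries cholesterol into mitochondria, the steroidogenic enzymes HSD3B1 and CYP21A2, the dopamine enzyme TH and the growth factor BDNF. At 0.1 µM and 6 weeks, where NR4A3 was called, their log2 changes were 0.40 (SE 0.140, adjusted p = 0.0970) for STAR, 0.39 (SE 0.205, adjusted p = 0.310) for HSD3B1, 0.21 (SE 0.142, adjusted p = 0.433) for CYP21A2, -0.37 (SE 0.239, adjusted p = 0.392) for TH and -0.10 (SE 0.0750, adjusted p = 0.465) for BDNF. From 6 to 12 weeks, when NR4A1 and NR4A3 rose in Control, 4 of the 5 fell there and 0 rose, with log2 changes of -1.23 (SE 0.236, adjusted p = 0.000245) for HSD3B1, -0.91 (SE 0.252, adjusted p = 0.00451) for TH, -0.72 (SE 0.158, adjusted p = 0.000465) for CYP21A2 and -0.34 (SE 0.0691, adjusted p = 0.000228) for BDNF, and -0.29 (SE 0.208, adjusted p = 0.287) for STAR. Each PFOS group also had 4 of 5 that fell and 0 that rose (3 to 5 and 0 in the alternative fits), where 36.6% of all genes were called in Control and 30.1 to 42.7% in the PFOS groups. HSD3B1 went from a mean of 25.04 TPM in Control at 6 weeks to 10.2 TPM at 12 weeks. The others on the list, such as CYP17A1 and CYP19A1, had 0 to 1 counts or too few to be tested, and CYP21A2 has a near-identical pseudogene with which it may share reads.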

How the data were processed

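RNA was measured in 32 stranded poly(A) libraries, which the study's authors sequenced on a DNBSEQ platform. Per the labels, HISAT2 2.0.4, Bowtie2 2.2.5, RSEM 1.2.8 and GRCh38.p14 were used. The authors deposited expected counts per gene, not normalized, and TPM. Their FPKM and normalized counts were not used here. Groups came from the labels, and 0 columns were unmapped. Of 48 pairs of replicates, 0 were identical.

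Expected counts were rounded to whole numbers (NR4A1 was not whole in 7 libraries, NR4A2 and NR4A3 in 0). edgeR 4.0.16 in R 4.3.3 was run with TMM, its filter on low counts and a robust quasi-likelihood fit, with the 16 libraries of a time for PFOS comparisons and all 32 for time and interaction. Genes were called at 0.05 after Benjamini-Hochberg adjustment over all genes tested, and a DEG also changed at least 2-fold. Exact tests used log2(CPM + 1). The fit was tested on simulated data. The rest used scipy 1.17.1, pandas 2.3.3 and numpy 2.4.6 under Python 3.11.15. Alternatives were DESeq2 1.42.0, other libraries, scaling and filters, the vial as block, and each vial left out.

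Named were the 3 members, called genes of each list (at most 4 per comparison, by size of change) and 5 genes most like each member. Naming all 5 tested target genes, and genes of the pathway and receptor lists by their levels, was chosen after values were seen. Members and lists were chosen with earlier results of these data known.

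The labels divide the flask of each vial among the groups, so replicate numbers pair the samples. Same-numbered libraries had mean correlations of 0.0584 to 0.132 at 6 weeks and of -0.163 to 0.156 at 12 weeks, each over 6 pairs of groups. The lowest value was that of 1 µM and Control at 12 weeks. All of these values are low, so the pairing is only weakly borne out. The replicate block, and counts of vials higher or lower where ranges overlap, rest on it.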

Additional observations from a re-analysis of the deposited data

Results flagged for a closer look

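A library far from the others of its group was found in 1 of 24 groups of 4 (3 genes in 8 groups), where chance flags about 1 in 20. For NR4A2 at 0.1 µM and 12 weeks, replicate 1 was at 115.4 CPM while the other 3 libraries were at 69.1 to 74.2 CPM, with a gap of 0.890 of the range, above Dixon's critical value at the 95% level. The same library was at 67.9 CPM for NR4A3 and 312 CPM for NR4A1, the highest of its group in both.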

How the results depend on the processing

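Among the recomputed member tests, 542 kept their side of the threshold, 22 came to pass it, 10 no longer passed and 0 reversed, and the 18 recomputed correlations all stayed past it. Of the recomputed family shares, 97 stayed the same and 23 moved. By counts in place of TPM, the mean NR4A3 share was 12.8% in 6-week Control and 5.61% at 0.1 µM. At 12 weeks it was 15.2% in Control and 8.72% at 1 µM. The group with the lowest NR4A3 share at each time stayed the same. The causes of the changes below were not tested. For NR4A3 at 1 against 0.1 µM and 6 weeks, the adjusted p was 8.82e-06 by DESeq2, 2.47e-05 by DESeq2 on the 2 groups and 0.0490 with at least 10 counts in every library. Fitting all 32 libraries together gave, at 12 weeks, 0.0164 for NR4A2 and 0.0201 for NR4A3 at 0.1 µM, and 0.00277 for NR4A3 at 1 µM. DESeq2 on the 2 groups gave 0.000722 for NR4A1, 0.0251 for NR4A2 and 2.72e-24 for NR4A3 at 1 µM, where NR4A3 was at 0.00105 by DESeq2 on the 16 libraries and at 0.00623 by edgeR on the 2 groups. With the replicate block, that is, paired by vial, NR4A3 passed at 12 weeks at 0.1 µM (0.0427) and 1 µM (0.0224), and the block changed no other call of a member. From 6 to 12 weeks, NR4A1 at 0.01 µM was at 0.128 by edgeR on the 2 groups and 0.0581 with no filter on low counts, and NR4A3 at 0.1 µM at 0.0530 by edgeR on the 2 groups.

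With each vial left out in turn, the adjusted p of NR4A3 at 6 weeks ranged from 0.0256 to 0.997 at 0.01 µM, 7.23e-09 to 0.0994 at 0.1 µM, 6.78e-06 to 0.443 at 0.1 against 0.01 µM and 2.68e-07 to 0.992 at 1 against 0.1 µM. At 12 weeks it ranged from 0.0451 to 0.750 for NR4A2 at 0.1 µM, and for NR4A3 from 0.00650 to 0.746 at 0.1 µM and 0.0119 to 0.618 at 1 µM. From 6 to 12 weeks the range in Control was 0.00102 to 0.0520 for NR4A1 and 0.00150 to 0.0573 for NR4A3. At 0.01 µM it was 0.0434 to 0.194 for NR4A1, 0.0201 to 0.499 for NR4A2 and 0.00612 to 0.0779 for NR4A3, and for NR4A2 it was 0.00703 to 0.494 at 0.1 µM and 0.0471 to 0.360 at 1 µM.

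Counts of genes called against Control at 6 weeks ranged from 0 to 6 at 0.01 µM, 22 (without replicate 3) to 739 (replicate block) at 0.1 µM and 5 (all 32 libraries) to 178 (without replicate 2) at 1 µM. At 12 weeks they ranged from 0 to 4, 4 (without replicate 3) to 540 (all 32 libraries) and 8 (without replicate 4) to 163 (DESeq2 on the 2 groups). Those between neighbouring concentrations ranged from 0 to 81 and 1 to 32 at 6 weeks and from 0 to 415 and 0 to 58 at 12 weeks, and those of the interactions from 0 to 3, 1 to 111 and 1 to 76. At 1 µM the change from 6 to 12 weeks called 2498 to 3966 genes. Counting error weighs most on NR4A3, which had as few as 247 counts in a library, and p-values reflect the spread between 4 vials of 1 line. The alternative without replicate 3 of 12-week Control was chosen after seeing the data.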
